A study of Mus musculus with 18 samples.

Results

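The DNA replication machinery was followed in cells of the mouse lung cancer lines EA1 and EA2 through 42 genes. The genes were given as a list of symbols, drawn up by role in replication, and all 42 were found among the 24269 genes that the expression tables of both lines share. The study asked how lung cancer cells change when they grow as a tumor in the lung instead of in a dish, and 18 libraries of the 2 lines were analysed. EA1 in vivo and EA2 in vivo have 5 libraries each, and each library holds GFP-negative cells sorted from the tumor-bearing left lungs of 3 to 5 pooled mice. The hosts were male C57BL/6 mice of 8 to 12 weeks that carry a GFP transgene, and the tumors had grown for 4 weeks. EA1 in vitro has 5 libraries and EA2 in vitro has 3, of the same lines passaged in RPMI medium with fetal bovine serum and penicillin/streptomycin. Both lines carry the Eml4-Alk fusion. EA1 is wild type for p53 and EA2 is p53 null, and each group rests on 1 cell line. A gate on GFP-negative cells takes tumor cells and any host cell with too little GFP to be seen. In RNA of sorted bulk cells, fewer cells of a type and less RNA per cell cannot be told apart. The series record calls the replicates independent without saying whether the in vitro libraries came from separate cultures, so p-values measure the spread between these libraries, which may be technical.

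A cell copies its genome once in each S phase. In G1 the origin recognition complex, Cdc6 and Cdt1 load the MCM2-7 helicase onto origins, and in S phase Cdc45, the GINS complex and Mcm10 turn it into the active CMG helicase. DNA polymerase alpha-primase then lays the primers, DNA polymerases epsilon and delta extend them on the PCNA clamp that RFC loads, RPA coats the single strands, and Fen1, RNase H2 and Lig1 join the Okazaki fragments. Most of these genes are targets of E2F transcription factors and are transcribed around the start of S phase, so their RNA is known to follow the share of cycling cells in a population.

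Values are FPKM (fragments per kilobase of transcript, scaled to the mapped fragments of a library) as the authors estimated them. They were tested as log2(FPKM + 1) with limma within each line, at a Benjamini-Hochberg adjusted p of 0.05 over all genes that reached 1 FPKM in 5 or more libraries of EA1 or 3 or more of EA2. A log2 change stands for in vivo minus in vitro and is given with its standard error from that fit. All 42 members passed the filter in both lines, among 11212 genes tested in EA1 and 11074 in EA2. Orc1 passed it in EA1 mainly through its in vitro libraries, the group where it is higher. The FPKM sum over all genes was between 531276 and 569388 for EA1 in vivo libraries, between 500086 and 517986 for EA1 in vitro libraries and between 475434 and 484492 for EA2 in vivo libraries. Among the EA2 in vitro libraries, 1 and 3 had sums of 733184 and 717905 and library 2 had 518260. For this reason the EA2 results are set beside a fit that keeps library 2 as the only in vitro library, where the spread comes from the in vivo libraries alone. The spacing of low values put the depth of the libraries of a line within 0.737 to 1.04 times that of its library 1 in EA1, and within 0.776 to 1.24 times in EA2. Levels of epithelial markers, from tables processed apart, were uneven. Krt8 averaged 878 FPKM in EA1 in vivo and 1486 FPKM in EA1 in vitro, and 27.5 FPKM in EA2 in vivo and 49.3 FPKM in EA2 in vitro. In EA1 Krt18 averaged 683 FPKM in vivo and 1341 FPKM in vitro, Cdh1 181 and 204 FPKM and Krt19 1020 and 909 FPKM. Other markers were far higher in EA1 in vivo. There Epcam averaged 102 FPKM in vivo and 1.89 FPKM in vitro, Sftpc 68.7 and 0.065 FPKM and Sftpb 8.63 and 0.028 FPKM. In EA2, where Krt18 averaged 441 FPKM in vivo and 691 FPKM in vitro, Cdh1 averaged 19.2 and 6.79 FPKM, Krt19 42.4 and 155 FPKM and Epcam only 0.989 and 0.141 FPKM. The lung lineage factor Nkx2-1 averaged at most 0.288 FPKM in any group, so that defining marker was near 0.

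Letters known from E2F sites stand near the start of some members and are shown because E2F factors are known to drive S phase genes. RefSeq windows on GRCm38.p6, of 250 bases before to 50 after a start site, were at hand for 34 of the 42 members. E2F letters (TTTGGCGC, TTTCGCGC, TTTCCCGC or TTTGCCGC, searched on both strands) stood in a window of 14 of these 34 members (41.2%), against 704 of all 27018 genes with a window (2.61%). CCAAT was found for 22 of the 34 members (64.7%, against 41.1% of all genes), GGGCGG for 25 (73.5%, against 38.2%) and TTTGAA, the letters of the CHR element of mitotic genes, for 5 (14.7%, against 20.2%). E2F letters can overlap: TTTCGCGCCAAA of Mcm5 holds 2 matches that share 4 bases, 1 on each strand. Stretches of at most 30 bases are printed below for 10 members on which the results turn, 5′ to 3′ along the gene, with the E2F letters in capitals.
Mcm3, chr1:20820266-20820294, minus strand: gGCGGGAAAacttgggaagtTTTGGCGCc
Mcm5, chr8:75109347-75109376, plus strand: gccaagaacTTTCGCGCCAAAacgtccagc
Mcm6, chr1:128359795-128359824, minus strand: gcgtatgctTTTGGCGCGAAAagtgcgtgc
Mcm7, chr5:138172030-138172059, minus strand: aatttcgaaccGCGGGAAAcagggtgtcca
Cdt1, chr8:122568036-122568064, plus strand: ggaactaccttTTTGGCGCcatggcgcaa
Orc1, chr4:108579416-108579445, plus strand: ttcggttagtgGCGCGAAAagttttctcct
Pola1, chrX:93632275-93632304, minus strand: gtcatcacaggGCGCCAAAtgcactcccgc
Lig1, chr7:13278841-13278870, plus strand: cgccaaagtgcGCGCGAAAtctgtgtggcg
Rfc3, chr5:151651195-151651224, minus strand: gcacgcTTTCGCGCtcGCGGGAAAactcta
Pole2, chr12:69228162-69228191, minus strand: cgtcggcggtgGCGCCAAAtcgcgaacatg
Of the 14 members with E2F letters, 8 have a match that begins upstream of the start site and 6 have them only downstream of it. The match lies 10 bases from the start site in Pole2 and Rfc3, downstream of it in Pole2 and upstream in Rfc3. In Mcm7 the printed match lies 165 bases upstream of the start site. Among members with a window, E2F letters stood in 4 of the 15 that fell in EA2, in 1 of the 2 that rose and in 9 of the 17 that passed neither way. A match of letters is a description and was not tested as a site.

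In EA1 all 42 members fell in vivo. Over all genes tested, 40.7% were lower in vivo and 30.9% were higher. The median log2 change of the 42 members was -1.28, against -0.09 over all genes, and the members ranged between -2.14 for Pole and -0.42 for Rnaseh2a. In vivo means lay between 17.4% and 74.0% of the in vitro means, with a median of 38.6%. For 41 members every in vivo library was below every in vitro library, which held for 32.5% of all genes. Rpa1 was the exception, since its in vivo library 4 (41.3 FPKM) lay above its in vitro library 3 (40.4 FPKM). All 42 members were also called lower when any EA1 library was left out. The study's size criteria were also applied, without its leading edge step and with its FPKM floor of 5 put on the mean of the higher group. With a log2 ratio of group means below -1, 32 members passed in EA1 (7.95% of all genes), and 0 passed with a ratio above 1 (9.9% of all genes).

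In EA2 the machinery split. Of the 42 members, 20 fell in vivo (24.4% of all genes did), 3 rose (32.9% of all genes did) and 19 passed the test in neither direction. The median log2 change was -0.41, against 0.18 over all genes, with a range of -2.34 for Gmnn to 0.87 for Mcm4. In vivo and in vitro libraries did not overlap for 19 members that were lower in vivo (22.8% of all genes) and for 1 that was higher (28.1% of all genes). With in vitro library 2 alone, 13 members fell (15.1% of all genes), all of them among the 20, and limma called 0 higher at an adjusted p and 0 at an unadjusted p under 0.05 (14.5% of all genes were higher). The sign of the change was negative for 37 of the 42 members in that fit and for 27 with all libraries. Without in vitro library 2, 18 fell (26.2% of all genes) and 11 rose (41.6% of all genes), so the count of rises depended on the in vitro libraries used. Without in vitro library 1, 21 fell (20.1% of all genes) and limma called 0 higher (1 at an unadjusted p under 0.05, and 23.1% of all genes at an adjusted p). Without in vitro library 3, 17 fell (20.3% of all genes) and 1 rose (26.1% of all genes). Leaving out in vivo libraries 1, 2, 3, 4 or 5 in turn gave 1, 1, 1, 5 and 2 members that rose and 18 to 20 that fell, while 28.3% to 31.6% of all genes rose and 22.1% to 23.5% fell. By the same size criteria, 17 members were lower (16% of all genes) and 0 higher (18.6% of all genes) in EA2 in vivo.

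**Figure D1:**
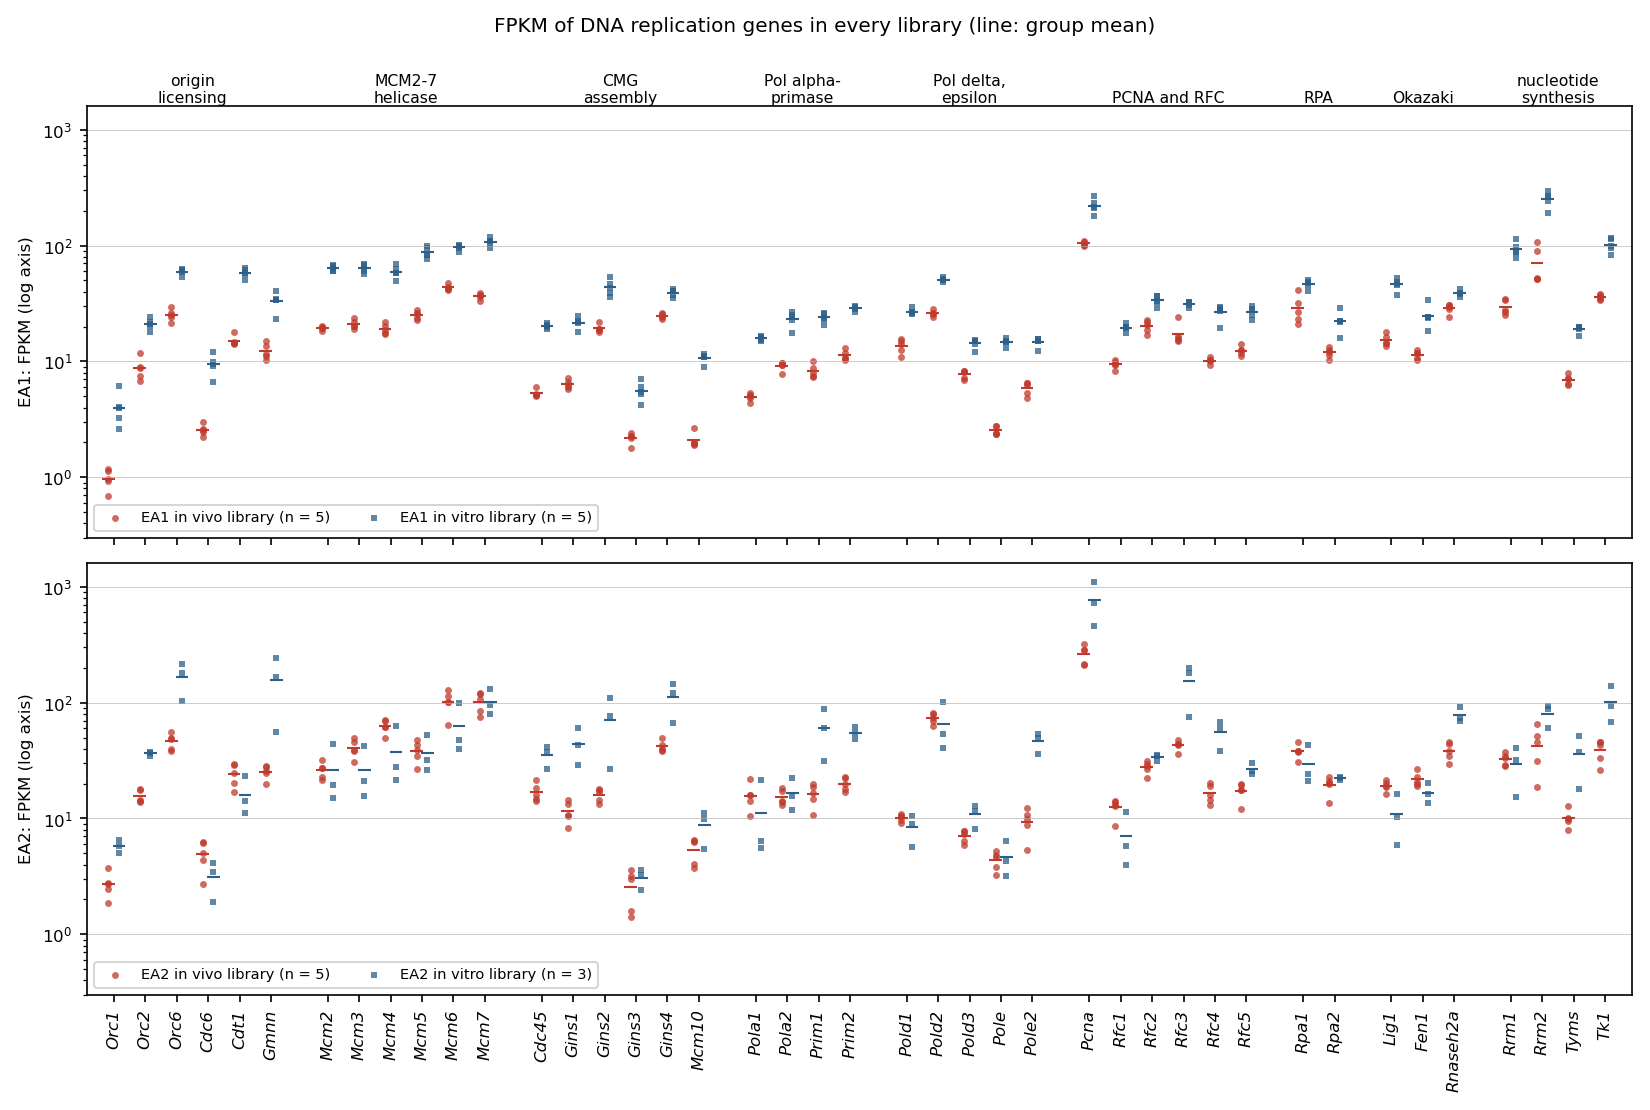
FPKM of the 42 DNA replication genes in every library, by complex, on a log axis; each point or square is 1 library, in vivo left of in vitro, and the line marks the group mean. In EA1 (upper panel) the groups overlap only for Rpa1, and in EA2 (lower panel) for 22 of the 42 members, all 6 subunits of MCM2-7 among them.

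The change itself differed between the lines for 28 members. Tested as EA2 change minus EA1 change over all 18 libraries, 23 members had the higher change in EA2 (36.3% of all genes did) and 5 the lower change (27.1% of all genes did), with a median difference of 0.78 over the members and 0.18 over all 11930 genes. This test takes 1 spread per gene from the libraries of both lines. The standard error of a difference can thus be smaller than that of the EA2 change in it. For Mcm2 it was 0.29 against 0.30 with all libraries, and 0.18 against 0.23 with EA2 in vitro library 2 alone. The 5 members that fell further in EA2 were Gmnn, Gins4, Pole2, Rfc3 and Rnaseh2a. With EA2 in vitro library 2 alone, 20 members had the higher change in EA2 (21.1% of all genes) and 0 the lower change (2 at an unadjusted p under 0.05, and 19.3% of all genes at an adjusted p), so none of these 5 kept its call. The difference was then -0.53 ± 0.21 for Rnaseh2a (adjusted p = 0.057) and -0.69 ± 0.32 for Pole2 (adjusted p = 0.0975), and it was -0.021 for Gins4, 0.022 for Rfc3 and 0.23 for Gmnn. Without EA2 in vitro library 2 the counts of higher and lower changes were 23 and 11 (41.9% and 29% of all genes), without library 1 they were 22 and 2 (30.4% and 24.5%), and without library 3 they were 24 and 2 (33.4% and 25.3%). Under median-of-ratios scaling, which moves the all-gene median to 0.006 in EA2 (0.18 as deposited) and to 0.008 in EA1 (-0.09 as deposited), 21 members had the higher and 9 the lower change in EA2, while over all genes 3491 had the higher and 4051 the lower change (4327 and 3230 as deposited). Across the 42 members the changes in EA1 and EA2 were not related in order (Pearson r = -0.13, Spearman rho = -0.13, a description across genes that share libraries).

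**Figure D2:**
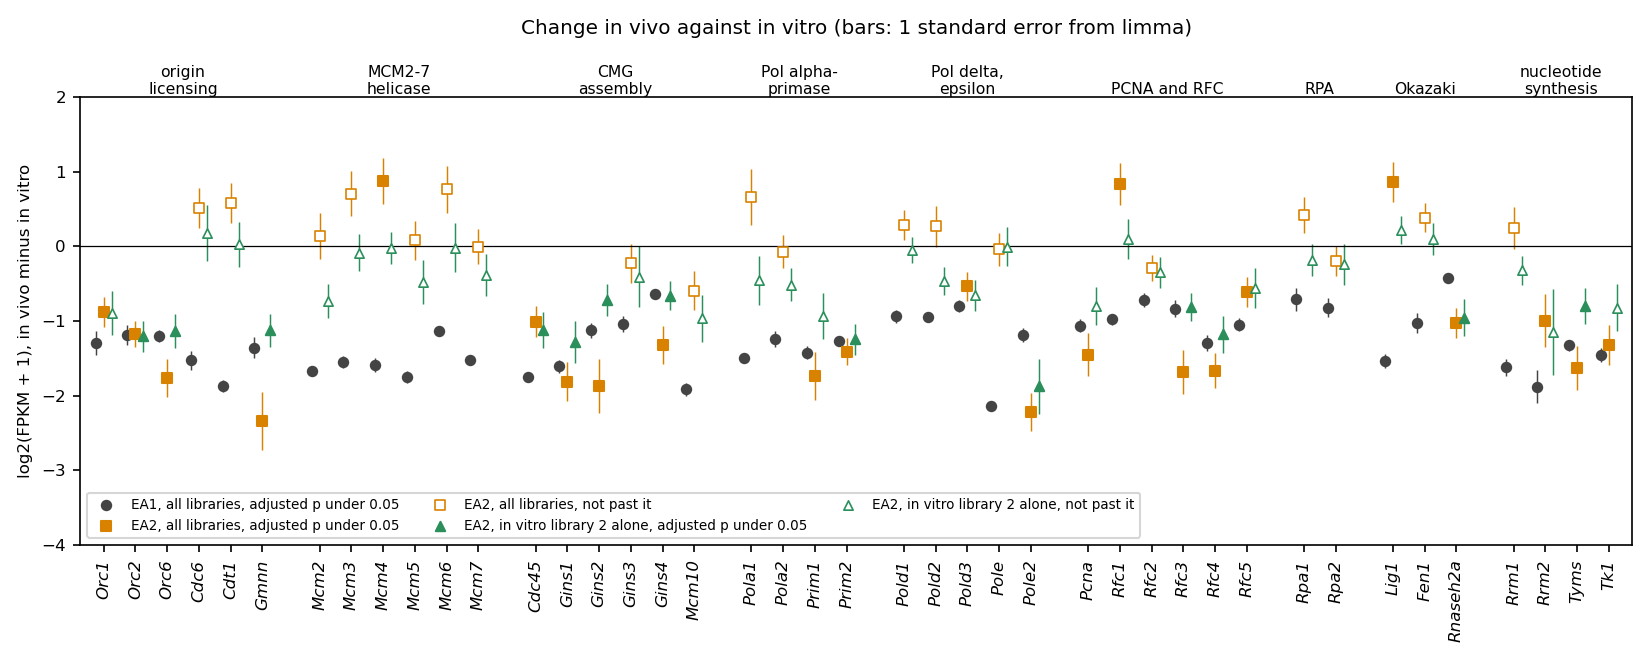
Log2 change in vivo minus in vitro of each DNA replication gene with its standard error (vertical axis), in EA1, in EA2 with all libraries, and in EA2 with in vitro library 2 alone; filled symbols passed an adjusted p of 0.05. All 42 EA1 symbols lie below 0, and the EA2 symbols run between -2.34 and 0.87.

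The 6 origin licensing genes all fell in EA1 (median change -1.33), and in EA2 4 of them fell while Cdc6 and Cdt1 passed in neither direction. Orc6, a subunit of the origin recognition complex and the most abundant of the group, had 26, 24, 21.5, 29.6 and 25.3 FPKM in EA1 in vivo libraries 1 to 5, against 61, 62.2, 53.5, 58.8 and 59.7 FPKM in EA1 in vitro libraries 1 to 5. In EA2 Orc6 had 49, 49.8, 55.3, 40.1 and 38.2 FPKM in vivo, against 216, 102 and 180.5 FPKM in vitro. The groups did not overlap in either line, and the changes were -1.20 ± 0.080 in EA1 and -1.76 ± 0.26 in EA2 (adjusted p = 2.92e-07 and 0.00034). Cdt1, which brings MCM2-7 to the origin, had 14.7, 14.5, 14.5, 17.8 and 14 FPKM in EA1 in vivo, against 50.6, 57.6, 56.5, 63.7 and 61.1 FPKM in EA1 in vitro. In vivo libraries thus held 26.1% of the in vitro mean, the lowest share of the group after Orc1 (24.5%). Its EA2 values were 28.8, 16.8, 20.2, 24.8 and 29.4 FPKM in vivo, against 11.1, 23.1 and 14.1 FPKM in vitro, and there the groups overlapped. The change was -1.87 ± 0.079 in EA1 and 0.58 ± 0.26 in EA2, and the difference between them, 2.45 ± 0.26, was among the 5 largest (adjusted p = 1.17e-06).

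Gmnn encodes geminin, which binds Cdt1 and blocks a further round of licensing. It had 13.6, 11.5, 10.3, 15.1 and 11.2 FPKM in EA1 in vivo, against 40.5, 34.5, 23.3, 34.2 and 34.2 FPKM in EA1 in vitro. In EA2 Gmnn had 28.4, 25.8, 24.9, 19.8 and 28.1 FPKM in vivo, against 166, 56.2 and 245 FPKM in vitro, where library 2 held the lowest of the 3 in vitro values and still lay above all in vivo libraries. Its change in EA2, -2.34 ± 0.39, was the largest fall of any member (adjusted p = 0.00064), and it was -1.13 ± 0.22 with in vitro library 2 alone (adjusted p = 0.0119). The difference to EA1 (-0.99 ± 0.41) turned to 0.23 with library 2 alone. Cdc6, the loader that works with Cdt1, had 2.59, 3.02, 2.24, 2.57 and 2.44 FPKM in EA1 in vivo, against 12.1, 9.40, 6.67, 9.80 and 9.19 FPKM in EA1 in vitro. Its values in EA2 overlapped, at 6.17, 4.39, 6.32, 2.70 and 5.06 FPKM in vivo, against 1.90, 4.10 and 3.45 FPKM in vitro. Orc2, a core subunit of the origin recognition complex, changed by nearly the same amount in both lines. It had 8.86, 7.52, 6.72, 11.9 and 8.81 FPKM in EA1 in vivo, against 17.9, 21.7, 24.3, 21 and 20.2 FPKM in EA1 in vitro, a change of -1.19 ± 0.13. In EA2 Orc2 had 17.6, 14.3, 14.5, 14 and 17.9 FPKM in vivo, against 35, 37.3 and 37 FPKM in vitro, a change of -1.18 ± 0.17. These in vitro libraries of EA2 agreed to within a few FPKM, and the change was -1.21 with library 2 alone. Orc1, the subunit that binds ATP and is known to be degraded as S phase begins, was at 0.684 to 1.17 FPKM in EA1 in vivo and 2.59 to 6.07 FPKM in EA1 in vitro. Orc1 changed by -1.30 ± 0.16 in EA1 and by -0.88 ± 0.20 in EA2, and the EA2 change was -0.89 ± 0.29 with library 2 alone, short of the threshold (adjusted p = 0.0578).

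All 6 subunits of MCM2-7, the helicase ring that unwinds DNA, fell in EA1, by -1.75 (Mcm5) to -1.13 (Mcm6), and none fell in EA2. Summed over the 6 genes, FPKM was 159.6 to 171.8 in EA1 in vivo libraries and 428 to 521 in EA1 in vitro libraries. In EA2 the sums were 428, 348, 406, 269 and 399.6 in vivo and 211, 432 and 231 in vitro, so in vitro library 2 lay above every in vivo library and in vitro libraries 1 and 3 below every one. Mcm7, the most abundant subunit over all libraries of each line though below Mcm6 in EA1 in vivo, had 39.1, 37.2, 37.7, 33.4 and 36.1 FPKM in EA1 in vivo, against 118, 110.2, 95.4, 109 and 106 FPKM in EA1 in vitro (-1.53 ± 0.065, adjusted p = 1.65e-08). In EA2 Mcm7 had 119.6, 84.9, 107, 75.4 and 120.2 FPKM in vivo, against 80.4, 130.5 and 95.2 FPKM in vitro, and the change of -0.0038 ± 0.24 did not pass the test (adjusted p = 0.992). Mcm4 had 20.1, 17.6, 17.2, 22 and 18.5 FPKM in EA1 in vivo, against 69.8, 62.2, 49.9, 58.5 and 57.6 FPKM in EA1 in vitro. It was the subunit called in opposite directions in the lines, with 70.9, 62.2, 62, 49.6 and 69 FPKM in EA2 in vivo, against 21.4, 63.1 and 27.8 FPKM in EA2 in vitro. The change was -1.59 ± 0.094 in EA1 and 0.87 ± 0.31 in EA2 (adjusted p = 0.0312), but -0.018 ± 0.21 with in vitro library 2 alone (adjusted p = 0.956).

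Mcm5, the subunit with the largest fall in EA1, had 27.8, 26.3, 23.9, 25.6 and 22.7 FPKM in EA1 in vivo, against 95.8, 98.8, 77, 82.8 and 82.9 FPKM in EA1 in vitro. In EA2 Mcm5 had 47.6, 34.8, 39, 26.5 and 42.8 FPKM in vivo, against 26.3, 52.4 and 31.8 FPKM in vitro. Mcm6, with the smallest fall in EA1, had 42.6, 42.5, 41.5, 47.6 and 43.9 FPKM in EA1 in vivo, against 102, 98.6, 88.7, 99.6 and 96.1 FPKM in EA1 in vitro. Even there the groups stood far apart. In EA2 Mcm6 had 113, 101, 128, 64.1 and 100.4 FPKM in vivo, against 47.9, 99.9 and 39.9 FPKM in vitro. Mcm3 had 22, 19.2, 20.2, 23.8 and 20.1 FPKM in EA1 in vivo, against 68.6, 68, 56.5, 64.2 and 60.3 FPKM in EA1 in vitro. In EA2 Mcm3 had 49.1, 37.9, 38.9, 31 and 45.8 FPKM in vivo, against 15.5, 42.5 and 21.1 FPKM in vitro. The ring shared this pattern in EA2, with in vitro library 2 within or above the in vivo range of every subunit and in vitro libraries 1 and 3 below library 2. The changes of Mcm2, Mcm3, Mcm5 and Mcm6 in EA2 were 0.14, 0.71, 0.083 and 0.77 with all libraries and -0.73, -0.085, -0.47 and -0.017 with in vitro library 2 alone, and none of these passed the test. The ring's median change in EA2 was 0.42 with all libraries and 0.13 with the trend of each library with transcript length removed. It was -0.24 with library 2 alone, so its sign changed with the in vitro libraries used. The difference between the lines kept its sign under that choice, with smaller values. All 6 subunits had the higher change in EA2, by 1.52 (Mcm7) to 2.46 (Mcm4) with all libraries, each past the test. With library 2 alone the differences were 0.94 (Mcm2) to 1.57 (Mcm4), with errors that draw on the spread of both lines.

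Cdc45, the 4 GINS subunits and Mcm10, which join MCM2-7 to make it an active helicase, all fell in EA1 (median change -1.37). In EA2 Cdc45, Gins1, Gins2 and Gins4 fell, and the same 4 fell with in vitro library 2 alone, while Gins3 and Mcm10 did not pass. Gins4 was the most abundant of the group over all libraries, though below Gins2 in EA1 in vitro, at 26.3, 23, 24, 25.7 and 24.6 FPKM in EA1 in vivo, against 37.2, 42.5, 35.2, 40.2 and 40.4 FPKM in EA1 in vitro. In EA2 Gins4 had 43.2, 39.6, 38.2, 38.9 and 49.5 FPKM in vivo, against 146, 66.4 and 122 FPKM in vitro. Its change was the smallest of the group in EA1, -0.64 ± 0.063, and -1.32 ± 0.25 in EA2 (-0.66 ± 0.19 with library 2 alone). Gins2 had 18.7, 17.9, 18.9, 21.7 and 19.1 FPKM in EA1 in vivo, against 53, 47, 35.8, 42.8 and 39.1 FPKM in EA1 in vitro (-1.13 ± 0.10). In EA2 Gins2 had 17.7, 13.5, 14.4, 17.9 and 17 FPKM in vivo, against 76.4, 26.9 and 109.6 FPKM in vitro, a change of -1.87 ± 0.37 (adjusted p = 0.00162). Here too library 2 was the lowest in vitro value, and the change was -0.72 ± 0.21 without the other in vitro libraries. Mcm10, which helps activate the helicase, had 1.94, 2.66, 2.03, 1.96 and 1.89 FPKM in EA1 in vivo, against 11.5, 11.1, 8.96, 10.9 and 10.9 FPKM in EA1 in vitro. That was 19.6% of the in vitro mean and a change of -1.92 ± 0.089. Its values in EA2 overlapped, at 6.27, 4.06, 6.35, 3.76 and 6.46 FPKM in vivo, against 5.40, 11.2 and 9.82 FPKM in vitro. Gins3 had 2.41, 2.25, 1.79, 2.27 and 2.17 FPKM in EA1 in vivo, against 7.05, 5.99, 4.24, 5.22 and 5.42 FPKM in EA1 in vitro (-1.04 ± 0.11). In EA2 Gins3 had 3.02, 3.20, 3.62, 1.603 and 1.40 FPKM in vivo, against 2.40, 3.57 and 3.25 FPKM in vitro, with no gap between the groups (-0.23 ± 0.26). Cdc45 changed by -1.75 ± 0.060 in EA1 and -1.01 ± 0.21 in EA2, and Gins1 by -1.61 ± 0.087 and -1.81 ± 0.26.

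DNA polymerase alpha-primase, the enzyme that lays down the RNA and DNA primers, has a catalytic subunit (Pola1), an accessory subunit (Pola2) and the primase pair Prim1 and Prim2. All 4 fell in EA1 within a narrow band of -1.50 to -1.24. In EA2 the primase genes fell and the polymerase genes did not pass the test. Prim2, the large primase subunit, had 11.8, 10.6, 10.8, 13.1 and 10.4 FPKM in EA1 in vivo, against 26.5, 28.4, 28.8, 29.7 and 29.95 FPKM in EA1 in vitro (-1.27 ± 0.070). In EA2 Prim2 had 22.3, 18.1, 20.01, 16.8 and 22.7 FPKM in vivo, against 54.4, 48.5 and 61.7 FPKM in vitro (-1.41 ± 0.18, adjusted p = 0.000189). The in vitro libraries of EA2 lay close together for Prim2, and the change was -1.25 ± 0.21 with library 2 alone (adjusted p = 0.00757). Prim1, the catalytic primase subunit, had 8.75, 7.97, 7.35, 9.99 and 7.53 FPKM in EA1 in vivo, against 23.4, 26, 20.7, 25.8 and 23.8 FPKM in EA1 in vitro (-1.42 ± 0.090). In EA2 Prim1 had 18.8, 14.8, 16.7, 10.8 and 19.9 FPKM in vivo, against 60.7, 31.3 and 88.4 FPKM in vitro. This change of -1.74 ± 0.32 narrowed to -0.94 ± 0.31 with library 2 alone and then missed the threshold (adjusted p = 0.0576). Pola1 had 4.85, 5.34, 5.11, 4.41 and 5.04 FPKM in EA1 in vivo, against 15.4, 16.7, 15, 16.3 and 15.8 FPKM in EA1 in vitro. In EA2 Pola1 had 15.9, 14.2, 16, 10.5 and 21.7 FPKM in vivo, against 5.52, 21.3 and 6.43 FPKM in vitro, where in vitro library 2 lay just under the highest in vivo library and libraries 1 and 3 lay below all of them. The change was -1.50 ± 0.061 in EA1, 0.67 ± 0.38 in EA2 and -0.46 ± 0.33 in EA2 with library 2 alone. The difference between the lines, 2.17 ± 0.37, was the fifth in size (adjusted p = 9.52e-05). Pola2 had 9.28, 9.70, 9.75, 7.86 and 9.32 FPKM in EA1 in vivo, against 26.6, 24.2, 17.4, 25.2 and 23 FPKM in EA1 in vitro (-1.24 ± 0.11). Its EA2 libraries overlapped, at 17.2, 14, 14.2, 13.1 and 18.3 FPKM in vivo, against 11.7, 22.2 and 15.8 FPKM in vitro (-0.071 ± 0.22).

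DNA polymerases delta and epsilon extend the primers on the lagging and the leading strand. The 5 genes fell in EA1 by -2.14 to -0.80, and in EA2 Pold3 and Pole2 fell and the other 3 did not pass. Pole, the catalytic subunit of polymerase epsilon, had 2.79, 2.39, 2.41, 2.77 and 2.38 FPKM in EA1 in vivo, against 14.8, 15.8, 13.1, 15.1 and 14.6 FPKM in EA1 in vitro. It kept 17.4% of the in vitro mean, the largest fall of all members in EA1 (-2.14 ± 0.069, adjusted p = 5.16e-09). In EA2 Pole had 4.85, 3.79, 4.65, 3.24 and 5.24 FPKM in vivo, against 3.17, 4.31 and 6.35 FPKM in vitro, with a change of -0.042 ± 0.23. The difference between the lines for Pole was 2.10 ± 0.21 with all libraries and 2.14 ± 0.20 with EA2 in vitro library 2 alone. Pole2, the second subunit of the same enzyme, fell in both lines. With all libraries it fell further in EA2, by a difference of -1.03 ± 0.25, which was -0.69 ± 0.32 with EA2 in vitro library 2 alone. It had 6.46, 5.36, 4.85, 6.30 and 6.51 FPKM in EA1 in vivo, against 14.9, 15.6, 12.3, 15.5 and 15.1 FPKM in EA1 in vitro (-1.19 ± 0.092). In EA2 Pole2 had 12.4, 8.73, 10.7, 5.31 and 9.84 FPKM in vivo, against 53.9, 36 and 49.7 FPKM in vitro (-2.22 ± 0.26, adjusted p = 0.000106). All 3 in vitro libraries of EA2 lay far above the in vivo libraries for Pole2, and with library 2 alone its change of -1.88 ± 0.37 was the largest fall of any member. Pold2, a small subunit of polymerase delta and the most abundant gene of the group, had 25.7, 26.1, 26, 28.2 and 24.1 FPKM in EA1 in vivo, against 50.5, 50.2, 53.8, 51.4 and 48.5 FPKM in EA1 in vitro. Its EA2 libraries overlapped, at 81.9, 73, 80.5, 68.8 and 62.8 FPKM in vivo, against 40.7, 101 and 53.5 FPKM in vitro. Pold1, the catalytic subunit of polymerase delta, changed by -0.94 ± 0.092 in EA1 and 0.28 ± 0.20 in EA2. Pold3 had the smallest fall of the group in EA1, -0.80 ± 0.081, with 6.90, 8.15, 8.33, 7.21 and 8.20 FPKM in EA1 in vivo, against 14.2, 15.3, 12, 15 and 15.1 FPKM in EA1 in vitro. In EA2 Pold3 had 7.82, 6.44, 7.39, 7.88 and 5.95 FPKM in vivo, against 8.10, 11.7 and 12.7 FPKM in vitro, a narrow gap (-0.53 ± 0.19, adjusted p = 0.0359). With library 2 alone Pold3 changed by -0.66 ± 0.21 and missed the threshold (adjusted p = 0.0528).

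PCNA is the ring that holds polymerases on DNA, and RFC, with Rfc1 as its large subunit, opens and closes it. All 6 genes fell in EA1 (median change -1.01). In EA2 Pcna, Rfc3, Rfc4 and Rfc5 fell, Rfc1 rose and Rfc2 did not pass. Pcna, the most abundant member of all in EA2, had 109, 106, 100.1, 102 and 104 FPKM in EA1 in vivo, against 266, 231, 179.9, 213 and 215 FPKM in EA1 in vitro (-1.07 ± 0.088). In EA2 Pcna had 321, 217, 284, 213 and 284 FPKM in vivo, against 727, 455 and 1109 FPKM in vitro (-1.46 ± 0.29, adjusted p = 0.00171). The groups did not overlap in either line, but with EA2 in vitro library 2 alone the change was -0.80 ± 0.25 and just missed the threshold (adjusted p = 0.0516). Rfc1 had 9.53, 9.35, 8.26, 10.3 and 9.84 FPKM in EA1 in vivo, against 19.4, 21.3, 17.6, 19.9 and 19.8 FPKM in EA1 in vitro (-0.98 ± 0.070). In EA2 Rfc1 had 13.9, 14, 13, 8.66 and 12.8 FPKM in vivo, against 4.00, 11.4 and 5.76 FPKM in vitro (0.83 ± 0.28, adjusted p = 0.0275). In vitro library 2 of EA2 lay inside the in vivo range for Rfc1, and the change was 0.10 ± 0.27 with that library alone. Rfc3 had 16.5, 15.1, 15.2, 24.1 and 16 FPKM in EA1 in vivo, against 31.9, 32.4, 28.8, 32.6 and 30.8 FPKM in EA1 in vitro (-0.83 ± 0.11). In EA2 Rfc3 had 44, 43.4, 47.7, 35.8 and 43.9 FPKM in vivo, against 200.3, 75.8 and 181 FPKM in vitro, a change of -1.69 ± 0.30 (-0.81 ± 0.19 with library 2 alone). Rfc4 had 10.2, 9.39, 10.2, 10.2 and 10.8 FPKM in EA1 in vivo, against 19.3, 27.5, 29.5, 29.1 and 27.9 FPKM in EA1 in vitro, the largest fall of the group there (-1.30 ± 0.11). In EA2 Rfc4 had 18.9, 20.4, 15.9, 13.1 and 14.4 FPKM in vivo, against 68.2, 38.3 and 60.6 FPKM in vitro. That fall was -1.67 ± 0.23 with all libraries and -1.18 ± 0.25 with library 2 alone. Rfc2 had the smallest changes of the group in both lines, -0.72 ± 0.093 in EA1 and -0.29 ± 0.18 in EA2. Its values were 20.5, 21.8, 22.9, 17 and 18.6 FPKM in EA1 in vivo, against 37, 36.9, 29, 32.6 and 33 FPKM in EA1 in vitro. In EA2 they were 31.3, 26.9, 28.1, 22.2 and 29.4 FPKM in vivo, against 31.2, 35.2 and 34.8 FPKM in vitro. Rfc5 changed by -1.05 ± 0.084 in EA1 and -0.61 ± 0.20 in EA2, a call lost with library 2 alone (-0.56 ± 0.27, adjusted p = 0.148).

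RPA protects single-stranded DNA, and its genes Rpa1 and Rpa2 fell in EA1 and passed in neither direction in EA2. Rpa1, the large subunit, had 31.7, 23.2, 21.2, 41.3 and 26.7 FPKM in EA1 in vivo, against 48.8, 50.6, 40.4, 47.1 and 45.8 FPKM in EA1 in vitro (-0.71 ± 0.16, adjusted p = 0.0017). In EA2 Rpa1 had 45.5, 38.2, 38.3, 30.8 and 37.7 FPKM in vivo, against 21.2, 42.9 and 24.2 FPKM in vitro (0.42 ± 0.24). Rpa2 had 12.1, 12.5, 10.3, 13.4 and 11.4 FPKM in EA1 in vivo, against 28.7, 22, 15.8, 22.2 and 22.2 FPKM in EA1 in vitro (-0.82 ± 0.13). Its EA2 in vitro libraries agreed closely, with 23, 20.3, 21.2, 13.5 and 19.8 FPKM in vivo, against 21.4, 22.9 and 22.2 FPKM in vitro (-0.19 ± 0.20). Lig1, the ligase that seals Okazaki fragments, fell in EA1 and rose in EA2. It had 16.1, 14.5, 13.6, 17.9 and 14.4 FPKM in EA1 in vivo, against 52.2, 48.9, 37.7, 46.5 and 45.8 FPKM in EA1 in vitro (-1.53 ± 0.10). In EA2 Lig1 had 21.4, 18.7, 20.2, 16.4 and 19.1 FPKM in vivo, against 5.91, 16.3 and 10.3 FPKM in vitro, and every in vivo library lay above every in vitro library, with 16.4 and 16.3 FPKM at the closest. The rise of 0.86 ± 0.26 (adjusted p = 0.0171) was 0.22 ± 0.19 with library 2 alone (adjusted p = 0.41). The difference between the lines for Lig1 was 2.40 ± 0.27 with all libraries, past the test, and 1.75 ± 0.20 with library 2 alone. Rnaseh2a, the catalytic subunit of RNase H2, had 30.5, 29.6, 30.9, 24.4 and 28.6 FPKM in EA1 in vivo, against 38.5, 39, 35.8, 42.5 and 39 FPKM in EA1 in vitro. At 74% of the in vitro mean this was the smallest fall of all members in EA1 (-0.42 ± 0.072, adjusted p = 0.000295). In EA2 Rnaseh2a had 38.4, 45.4, 43.8, 34.5 and 29.5 FPKM in vivo, against 91.7, 74.3 and 69.9 FPKM in vitro (-1.03 ± 0.20). Fen1, the flap nuclease, had 11.9, 12.6, 11.7, 10.6 and 10.3 FPKM in EA1 in vivo, against 33.7, 24, 18.3, 24.2 and 23.7 FPKM in EA1 in vitro (-1.03 ± 0.13). Its EA2 libraries overlapped, at 26.7, 19.9, 19.1, 20.6 and 22.9 FPKM in vivo, against 13.5, 20.3 and 16.2 FPKM in vitro (0.38 ± 0.19).

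Ribonucleotide reductase (Rrm1 and Rrm2) makes deoxynucleotides, Tyms makes thymidylate and Tk1 salvages thymidine. The 4 genes fell in EA1, with a median change of -1.54, and in EA2 Rrm2, Tyms and Tk1 fell and Rrm1 did not pass. Rrm2, the small subunit made in S phase, was the most abundant member of all in EA1 in vitro. It had 108, 52.5, 51.6, 89.99 and 51.6 FPKM in EA1 in vivo, against 296, 265, 193, 243 and 264 FPKM in EA1 in vitro (-1.88 ± 0.22, adjusted p = 1.76e-05). The in vivo libraries formed a low set of 3 and a higher pair, libraries 1 and 4, still below every in vitro library. In EA2 Rrm2 had 51.3, 45.6, 65.4, 18.6 and 31.5 FPKM in vivo, against 60.3, 87.7 and 92.6 FPKM in vitro. It was the 1 member of the 20 that fell in EA2 with groups that overlapped (-0.99 ± 0.36, adjusted p = 0.0341), and it lost that call with library 2 alone (-1.15 ± 0.58, adjusted p = 0.17). Rrm1, the large subunit, had 34.4, 26.8, 24.9, 33.9 and 27.9 FPKM in EA1 in vivo, against 115, 98, 77.4, 88.5 and 87.8 FPKM in EA1 in vitro (-1.62 ± 0.12). In EA2 Rrm1 had 34.9, 29.1, 33.1, 28.6 and 37.3 FPKM in vivo, against 15.4, 40.8 and 31.8 FPKM in vitro (0.24 ± 0.28). The EA2 in vivo values for Rrm1 all lay inside the range of the in vitro libraries. Tyms had 7.87, 7.12, 7.05, 6.33 and 6.25 FPKM in EA1 in vivo, against 19.6, 19.4, 16.7, 19.6 and 18.9 FPKM in EA1 in vitro (-1.33 ± 0.074). In EA2 Tyms had 12.7, 9.58, 9.92, 8.02 and 10.1 FPKM in vivo, against 37.8, 18.1 and 51.8 FPKM in vitro, a change of -1.63 ± 0.30 that was -0.80 ± 0.24 with library 2 alone (adjusted p = 0.042). The groups stayed apart in both lines for Tyms. Tk1 had 37.6, 34.9, 38.5, 34 and 36 FPKM in EA1 in vivo, against 117, 113, 82.2, 99.2 and 95.6 FPKM in EA1 in vitro (-1.45 ± 0.091). In EA2, where it was the most abundant gene of the group over all libraries, Tk1 had 46, 45.4, 43, 26.4 and 33 FPKM in vivo, against 94.1, 67.8 and 140.1 FPKM in vitro (-1.32 ± 0.27). Tk1 changed by -0.82 ± 0.31 with in vitro library 2 alone (adjusted p = 0.0856).

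Most members that fell in EA2 had short coding sequences. This split was chosen after the values were seen and is a description. Of the 21 members with coding sequences up to 1515 bases, 16 fell and 0 rose in EA2 (median change -1.32). Of the 21 members of 1581 bases or more, 4 fell and 3 rose (median change 0.24). Over all genes tested, of any length, 24.4% fell and 32.9% rose in EA2. With in vitro library 2 alone, the median changes were -0.80 for the shorter and -0.32 for the longer members. In EA1 all members of both sets fell (40.7% of all genes did). The longer ones fell further, with medians of -1.07 for the shorter and -1.53 for the longer members. Across the 42 members the change rose with coding length in EA2 (Spearman rho = 0.71) and fell with it in EA1 (rho = -0.39). The trend was not particular to replication, since over the other genes tested rho was 0.44 in EA2 (10327 genes) and -0.22 in EA1 (10586 genes). With in vitro library 2 alone rho over the members was 0.46. When the trend of each library with transcript length was removed, a step chosen after the data were examined, 23 members fell in EA2 (27.9% of all genes) and 1 rose (25.8% of all genes). These 23 were the 20 above with Mcm10, Pole and Rfc2, and the member that still rose was Lig1. After that step 17 of the 21 shorter and 6 of the 21 longer members fell, and rho with coding length over the members was 0.54. The step acts on transcript length, which is not coding length. Over the members in EA2, rho with transcript length was 0.59 with all libraries and 0.36 after the step. The relation to either length was thus smaller after the step and still present among the members.

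**Figure D3:**
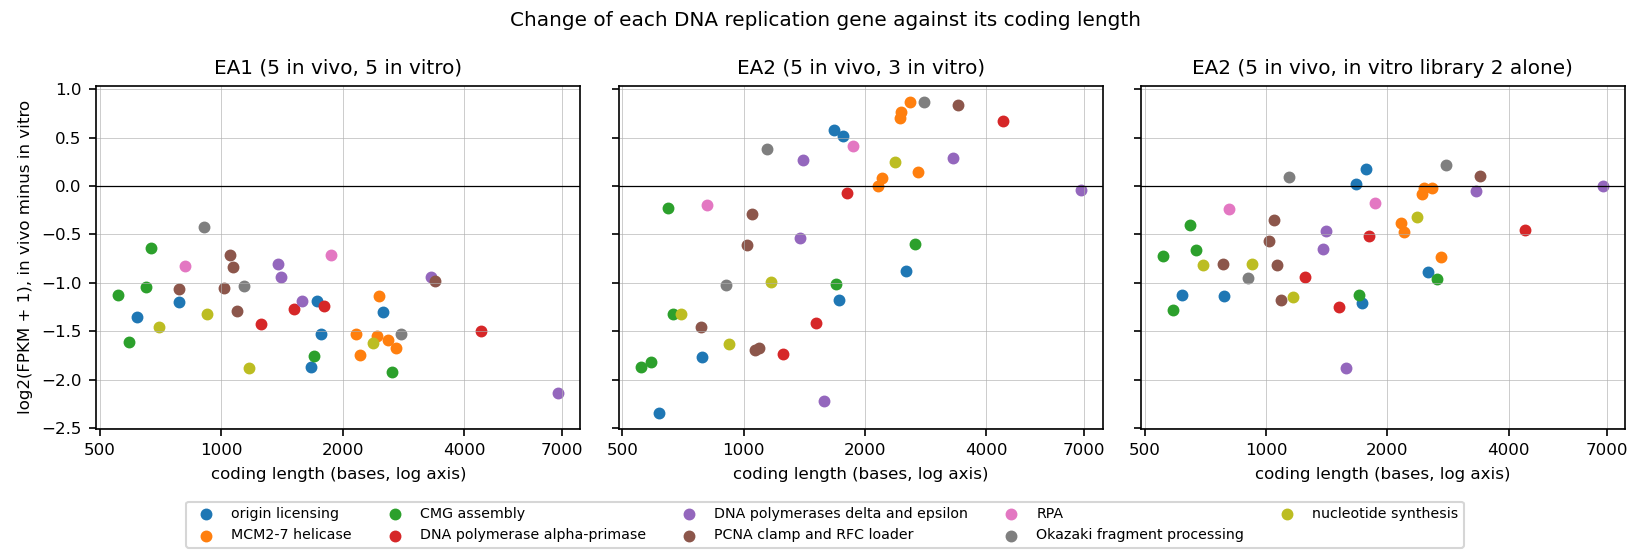
Log2 change in vivo minus in vitro against coding length in bases (log axis) for the 42 DNA replication genes, in EA1, in EA2 with all libraries and in EA2 with in vitro library 2 alone; each point is 1 gene, colored by complex. In EA2 the points climb with length (Spearman rho = 0.71), and in EA1 they decline (rho = -0.39).

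Seen by library, the members moved as a block in EA1. The median deviation of the 42 members from the in vitro mean was -1.35 to -1.20 in the EA1 in vivo libraries and -0.19 to 0.08 in the EA1 in vitro libraries. EA1 in vitro library 3 was the lowest of its group for 35 of the 42 members. In EA2 the in vivo libraries lay at -0.66 to -0.24 and the in vitro libraries at -0.26 to 0.13. Among the shorter members the EA2 in vivo libraries lay at -1.71 to -1.16 and the in vitro libraries at -0.49 to 0.21, with library 2 the lowest. Among the longer members the EA2 in vivo libraries lay at -0.047 to 0.37 and the in vitro libraries at -0.42 to 0.56, with library 2 the highest. EA2 in vivo library 4 was the lowest of its group for 31 of the 42 members, and without it 20 members fell and 5 rose.

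**Figure D4:**
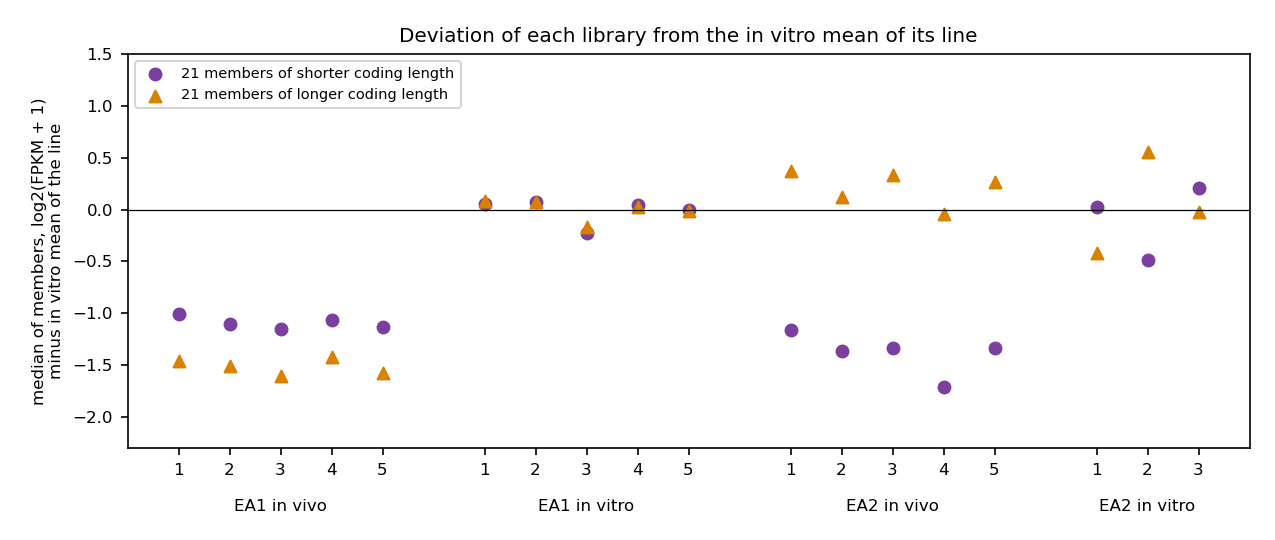
Median deviation of the DNA replication genes from the in vitro mean of their line on the log2(FPKM + 1) scale (vertical axis), for each library, with circles for the 21 members of shorter and triangles for the 21 members of longer coding length. In EA2 in vitro the circle and the triangle of library 2 lie at -0.49 and 0.56, opposite in sign, while in EA1 all 5 in vivo libraries lie between -1.60 and -1.01 for both sets.

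Host cell markers were read beside the members. Of 7 fibroblast markers 6 rose in EA1 and 4 rose in EA2. Of 13 leukocyte markers 4 rose in EA1 and 1 rose in EA2, with 9 in EA1 and 10 in EA2 under the filter. The 4 in EA1 were all the leukocyte markers tested there. Of 6 endothelial markers 4 rose in EA1, all that were tested, and 0 were tested in EA2. Of 6 airway club and red cell markers 3 rose in each line, again all that were tested. Over all genes 30.9% rose in EA1 and 32.9% in EA2. The endothelial and the airway club and red cell markers tested were under 1 FPKM in every in vitro library. They passed the filter only through in vivo libraries, so their rise was largely fixed by the filter. The same holds in EA1 for Lyz2, S100a8, S100a9, Col1a2, Dcn and Lum, and in EA2 for Lyz2, Col1a1, Col3a1 and Pdgfrb. With EA2 in vitro library 2 alone, Dcn was the 1 fibroblast marker that rose, and among leukocyte markers Cd68 fell (-1.42 ± 0.42). Summed over 7 fibroblast markers, FPKM was 163.7 to 2705 in EA1 in vivo and 4.16 to 6.77 in EA1 in vitro, and 346 to 809.95 in EA2 in vivo and 0.48 to 21.4 in EA2 in vitro. Most of the EA2 in vivo sum was Dcn, at 306 to 769 FPKM, while Lum averaged 0.0435 FPKM there. Summed over 13 leukocyte markers, it was 88.4 to 174.5 in EA1 in vivo and 1.01 to 1.70 in EA1 in vitro, and 16.5 to 99.1 in EA2 in vivo and 4.67 to 17.4 in EA2 in vitro. The EA2 groups overlapped in the leukocyte sum. Summed over 6 endothelial markers, FPKM was 17.4 to 49 in EA1 in vivo and 0.097 to 0.17 in EA1 in vitro. In EA2 that sum was 0.63 to 11.3 in vivo and 0.18 to 0.46 in vitro. Summed over 6 airway club and red cell markers, it was 248 to 941 in EA1 in vivo and 0.44 to 0.99 in EA1 in vitro. In EA2 the latter sum was 15.1 to 166 in vivo and 0 to 0.019 in vitro. The leukocyte antigen Ptprc averaged only 0.536 FPKM in EA1 in vivo and 0.217 FPKM in EA2 in vivo. EA1 in vivo library 4 held the highest sum of fibroblast markers of its group. It also held the lowest sum of epithelial markers (1635 FPKM, against 2831 to 3798 FPKM in the other in vivo libraries). Its shorter members lay at -1.07, inside the range of the other in vivo libraries. Its longer members lay at -1.42, the smallest fall of the group (-1.60 to -1.46 in the others). This library was the highest of its group for 16 of the 42 members. EA1 in vivo library 3 held the highest endothelial (49 FPKM) and airway club and red cell (941 FPKM) sums of its group, and the highest epithelial sum. It was the lowest of its group for 17 members. EA2 in vivo library 4 held the highest sums of fibroblast, endothelial and airway markers of its group together with the lowest sum of the 42 members (1108 FPKM, against 1321 to 1605 FPKM). It also held the highest sum of epithelial markers (752 FPKM, against 294 to 644 FPKM). Most of that epithelial sum was Krt18 (635 FPKM). The library also held the highest Sftpc (16.5 FPKM) and Sftpb (2.42 FPKM) of its group. Whether host cells have a part in these changes was not tested.

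The rest of the replication pathway was read through 48 further genes in 4 lists, written with earlier results of these data known. In EA1 40 of the 48 fell and 4 rose, and in EA2 20 fell and 8 rose, with median changes of -1.08 and -0.41. Over all genes 40.7% were lower and 30.9% higher in EA1, and 24.4% lower and 32.9% higher in EA2. With EA2 in vitro library 2 alone 17 of the 48 fell (15.1% of all genes) and 2 rose (14.5% of all genes). Of 18 origin and fork factors, all fell in EA1 and 8 fell and 2 rose in EA2. Fbxo5, which holds back the anaphase-promoting complex in S phase, changed by -2.48 ± 0.085 in EA1, and Mtbp, a helper of helicase activation, by -2.18 ± 0.15. In EA2 the largest changes of the list were -2.47 ± 0.25 for Orc4, another subunit of the origin recognition complex, and -1.77 ± 0.22 for the fork protection gene Tipin. With in vitro library 2 alone 7 of the 18 fell, Orc4 by -1.82 ± 0.20 and Tipin by -1.36 ± 0.22.

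For the 2 lists that follow, the shares of all genes were 40.7% lower and 30.9% higher in EA1, and 24.4% lower and 32.9% higher in EA2. Of 10 small subunits and alternative clamp loaders, 6 fell and 1 rose in EA1, and 5 fell and 2 rose in EA2. Rpa3, the smallest RPA subunit, stood at 26.3 to 36.8 FPKM in EA1 in vivo and 27.5 to 38.8 FPKM in EA1 in vitro and did not pass the test there (-0.055 ± 0.11). In EA2 Rpa3 had 31.4, 27.8, 37.1, 33.5 and 23.1 FPKM in vivo, against 215, 60.9 and 368 FPKM in vitro, the largest fall of the list (-2.45 ± 0.46, and -0.99 ± 0.25 with library 2 alone). Pole4, a small subunit of polymerase epsilon, followed at -1.76 ± 0.25 in EA2 (-1.18 ± 0.27 with library 2 alone), and in EA1 the list was led by Chtf18 (-1.58 ± 0.12) and Dscc1 (-1.47 ± 0.11), both of the alternative clamp loader. Of 12 genes of nucleotide supply, 8 fell and 3 rose in EA1, and 6 fell and 1 rose in EA2. The 1 that rose in EA2 was Samhd1, which breaks down deoxynucleotides, with 81.7, 70.2, 46.2, 54.5 and 63.1 FPKM in vivo, against 6.56, 17 and 10.2 FPKM in vitro (2.45 ± 0.29, and 1.81 ± 0.29 with library 2 alone). In EA1 Samhd1 rose by 0.35 ± 0.12. The largest falls were in Dck (-1.09 ± 0.14) and Ctps (-1.08 ± 0.10) in EA1, which make deoxycytidine monophosphate and CTP, and in Dtymk (-1.90 ± 0.33, and -0.92 ± 0.20 with library 2 alone), the thymidylate kinase, in EA2.

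Markers of later cell cycle stages moved with the replication genes in EA1 and in part in EA2. All 12 G2 and mitosis genes fell in EA1 (median change -1.71, with 40.7% of all genes lower). In EA2 6 of the 12 fell (24.4% of all genes) and the other 6 did not pass (median change -0.90). The change was higher in EA2 than in EA1 for 5 of the 12 and lower for 1 (36.3% and 27.1% of all genes). The largest of these differences was that of Mki67 (2.63 ± 0.36), which changed by -1.88 ± 0.12 in EA1 and by 0.75 ± 0.35 in EA2. In EA1 Top2a, the topoisomerase of condensing chromosomes, changed by -2.06 ± 0.11 and the mitotic kinase Aurka by -1.90 ± 0.13. In EA2 Cdk1, the kinase that drives entry into mitosis, had 27.4, 21.5, 26.6, 19.8 and 26.5 FPKM in vivo, against 107, 71.9 and 232 FPKM in vitro (-2.28 ± 0.32, and -1.53 ± 0.22 with library 2 alone), and Aurka changed by -1.72 ± 0.28. With in vitro library 2 alone the median change of the 12 in EA2 was -1.03, and Mki67 changed by 0.55.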

How the data were processed

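RNA of 18 libraries was measured on polyA-selected, stranded libraries. The authors aligned trimmed reads to mm10 with STAR and deposited a table of FPKM values per line, estimated with Cufflinks (2.0.2 per the submitters' processing notes, a later release per the methods). The version of the annotation was not given in the sources used here. Of 24341 EA1 entries, 6 with a status word in place of a value were left out, and of 24347 EA2 entries, 27 named by a date. Libraries were compared in R 4.3.3 with limma 3.58.1 (trend, two-sided, Benjamini-Hochberg) on log2(FPKM + 1), within a line, and by an interaction over all 18 libraries for the difference between the lines. That interaction takes 1 spread per gene from both lines, so its standard errors can be too small for the EA2 part. Levels were not tested between the tables, which were processed apart. A log2 change on this scale understates the change of low genes. FPKM keeps no fragment counts; relative depth was read from the spacing of values below 0.3 FPKM, and 3 of 28 pairs of EA2 libraries disagreed with the estimate by over 0.1 log2. Alternatives were a pseudocount of 0.1, no filter, median-of-ratios scaling, robust empirical Bayes, the replicate block, each library left out, EA2 in vitro library 2 alone, the study's criteria of size without its leading edge step and, added after the data were examined, a correction of every library for its slope on transcript length (loess, span 0.3). The fits were tested on simulated data. The members, lists and alternatives were chosen with earlier results of these data known. Values in every library were given for the most abundant member of each complex and those with the largest and smallest change in either line. They were also given for members called in opposite directions in the lines and for the 5 largest differences between the lines. Further genes were named mainly as the 2 largest changes per list and line, and Mki67 as the largest difference between the lines in its list. Coding and transcript lengths are from GENCODE on GRCm38, and promoter windows from RefSeq on GRCm38.p6. Python 3.11.15 was used for tables and plots, with pandas 2.3.3, numpy 2.4.6 and matplotlib 3.10.9.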

Additional observations from a re-analysis of the deposited data

Results flagged for a closer look

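The change in vivo differed between EA1 and EA2 for 28 of the 42 members in a test of the difference itself, given here as EA2 change minus EA1 change on the log2(FPKM + 1) scale. It was higher in EA2 for Mcm4 (2.46), Cdt1 (2.45), Lig1 (2.40), Mcm3 (2.26), Pola1 (2.17), Pole (2.10), Cdc6 (2.04), Mcm6 (1.90), Rrm1 (1.87), Mcm5 (1.83), Rfc1 (1.81), Mcm2 (1.81), Mcm7 (1.52), Fen1 (1.41), Mcm10 (1.32), Pold1 (1.22), Pold2 (1.21), Pola2 (1.17), Rpa1 (1.13), Gins3 (0.81), Cdc45 (0.74), Rpa2 (0.63) and Rfc2 (0.43). It was lower in EA2 for Pole2 (-1.03), Gmnn (-0.99), Rfc3 (-0.86), Gins4 (-0.68) and Rnaseh2a (-0.60). With EA2 in vitro library 2 alone the difference also passed for 19 of the 23 that were higher and for 0 of the 5 that were lower.

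In 11 of 126 groups of 5 libraries 1 library lay far from the other 4, where chance alone gives about 1 in 20. EA1 in vivo library 4 stood out for Cdt1, with 17.8 FPKM against 14 to 14.7 FPKM in the others, for Rfc3, with 24.1 FPKM against 15.1 to 16.5 FPKM in the others, and for Pola2, with 7.86 FPKM against 9.28 to 9.75 FPKM in the others. The same library had the highest sum of fibroblast markers of its group (2705 FPKM), and the part of host cells in these values was not tested. EA1 in vivo library 1 stood out for Cdc45, with 6.00 FPKM against 5.01 to 5.19 FPKM in the others, and library 2 for Mcm10, with 2.66 FPKM against 1.89 to 2.03 FPKM in the others. EA1 in vitro library 3 was the low one for Mcm10, with 8.96 FPKM against 10.9 to 11.5 FPKM in the others, for Pole2, with 12.3 FPKM against 14.9 to 15.6 FPKM in the others, and for Tyms, with 16.7 FPKM against 18.9 to 19.6 FPKM in the others. EA1 in vitro library 2 was high for Pold1, with 29.5 FPKM against 25.7 to 26.7 FPKM in the others, and library 1 was low for Rfc4, with 19.3 FPKM against 27.5 to 29.5 FPKM in the others. EA2 in vivo library 4 was low for Rfc1, with 8.66 FPKM against 12.8 to 14 FPKM in the others. Each of these EA1 members was called lower in vivo also with that library left out.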

How the results depend on the processing

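All 42 members stayed lower in EA1 in vivo, past the threshold, under a pseudocount of 0.1, no filter, median-of-ratios scaling, robust empirical Bayes, the replicate block, removal of the length trend and each library left out (42 lower and 0 higher each time). In EA2, 20 members were lower and 3 higher. The count of higher members moved to 0 without the filter, to 0 with in vitro library 2 alone (13 lower), to 1 with the length trend removed and to 0 by the study's criteria of size. Leaving out each library in turn gave 17 to 21 lower and 0 to 11 higher. The difference between the lines, with 5 lower and 23 higher in EA2, moved to 9 lower under median-of-ratios scaling, to 0 with in vitro library 2 alone and to 2 with the length trend removed. Leaving out each library gave 2 to 11 lower and 22 to 25 higher. The cause of these shifts was not tested.

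Some members changed sign. In EA2 they were Mcm2 (-0.73), Mcm3 (-0.085), Mcm4 (-0.018), Mcm5 (-0.47), Mcm6 (-0.017), Pola1 (-0.46), Pold1 (-0.051), Pold2 (-0.47), Rpa1 (-0.18) and Rrm1 (-0.32) with in vitro library 2 alone, Mcm2 (-0.18), Mcm5 (-0.24), Pold1 (-0.047), Rpa1 (-0.14) and Rrm1 (-0.16) with the length trend removed, and Mcm2 (-0.045) and Mcm5 (-0.10) under median-of-ratios scaling. For the difference between the lines they were Orc2 (-0.020), Orc6 (0.061), Gmnn (0.23), Gins1 (0.33), Gins2 (0.41), Prim1 (0.49), Prim2 (0.021), Pcna (0.26), Rfc3 (0.022), Rfc4 (0.12) and Tyms (0.53) with library 2 alone, Orc2 (-0.29), Orc6 (0.14), Gins1 (0.67), Prim1 (0.15), Prim2 (0.079), Pcna (0.12), Rfc2 (-0.16) and Rfc4 (0.38) with the length trend removed, and Orc2 (-0.28), Pold3 (-0.0047) and Tk1 (-0.17) under median-of-ratios scaling. With each library left out, changes in EA2 crossed 0 for Mcm2 (-0.17 to 0.58), Mcm5 (-0.12 to 0.36), Mcm7 (-0.16 to 0.19), Pola2 (-0.28 to 0.15), Pold2 (-0.013 to 0.63), Pole (-0.24 to 0.17) and Rrm1 (-0.15 to 0.53), and differences for Gins1 (-0.47 to 0.053), Orc2 (-0.066 to 0.12), Prim1 (-0.71 to 0.020), Tk1 (-0.12 to 0.40) and Tyms (-0.72 to 0.015).

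Replicate numbers did not pair the libraries: the deviations of libraries with the same number had a correlation between -0.061 and 0.077 in EA1, and between -0.13 and 0.0066 in EA2. With the replicate block 16 members were lower and 4 higher in EA2, and 3 had the lower and 25 the higher change in EA2. Under the block the sign turned for Mcm7 (0.040) and Gins3 (0.081) in EA2 and for Orc2 (-0.0023) in the difference.

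FPKM carries no counts, so the counting error of a value is unknown. For the 10 members listed for in vitro library 2 alone, the sign of the EA2 change turned on which in vitro libraries were used. Some of these values were near 0 for their error, such as Mcm4 (-0.018 ± 0.21) and Mcm6 (-0.017 ± 0.33).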

Other observations

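All 8 genes of a list for rebuilding chromatin behind the fork fell in EA1 (median change -1.68, with 40.7% of all genes lower). The list was led by Hells (-2.10 ± 0.10), a remodeler tied to DNA methylation, and by Dnmt1 (-1.76 ± 0.084), the maintenance methyltransferase. Over all genes in EA2, 24.4% were lower and 32.9% higher. In EA2 Asf1a, a histone chaperone, fell (-1.09 ± 0.23), while Chaf1a (0.81 ± 0.24), Uhrf1 (0.94 ± 0.33) and Dnmt1 (0.82 ± 0.28) rose. With EA2 in vitro library 2 alone the histone chaperone gene Asf1b changed by -1.30 ± 0.37 and Asf1a by -0.56 ± 0.24. In that fit Chaf1a changed by 0.29 ± 0.24, Uhrf1 by 0.15 ± 0.33 and Dnmt1 by 0.20 ± 0.30. Those rises were thus smaller without in vitro libraries 1 and 3. The change was higher in EA2 than in EA1 for 6 of the 8 with all libraries and lower for 1 (36.3% and 27.1% of all genes). The median difference was 1.89 with all libraries and 1.34 with library 2 alone.

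The E2F and RB family, which is known to set transcription of the members, fell in EA1 for 9 of 13 genes and rose for 1. Over all genes in EA1, 40.7% were lower and 30.9% higher. E2f7, a repressor of the family, changed most (-1.56 ± 0.11), followed by the pocket protein gene Rbl1 (-1.40 ± 0.089). Rbl2, the pocket protein of resting cells, rose in both lines, at 19.2, 18.1, 16.4, 27.6 and 19.1 FPKM in EA1 in vivo, against 14.4, 13, 9.85, 12.8 and 13.6 FPKM in EA1 in vitro (0.61 ± 0.14). In EA2 it had 7.89, 10.7, 10.7, 10.2 and 8.95 FPKM in vivo, against 1.89, 5.35 and 2.84 FPKM in vitro (1.36 ± 0.25, and 0.74 ± 0.22 with library 2 alone). In EA2 3 of the 13 genes fell and 4 rose, shares near those of all genes (24.4% and 32.9%). With in vitro library 2 alone 3 fell and 1 rose (15.1% and 14.5% of all genes). Rbl1 fell in EA2 by -0.95 ± 0.18 with all libraries, the second largest change of the list in that line.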
